A study of Fragaria hybrid cultivar with 9 samples.

Results

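The miR167 family was followed in petals of the pink-flowered strawberry 'Sijihong', a hybrid of Fragaria and Potentilla grown in open ground. Small RNAs were sequenced from young buds (PF_L), from buds beginning to color (PF_Z) and from big buds (PF_D), as 9 libraries that stand for 3 biological replicates of each stage. All libraries came from the same untreated cultivar, and the labels do not say how plants were divided between replicates. Members were the rows of the miRNA table named miR167 or MIR167 with no further digit, after fully repeated lines had been dropped and each sequence counted once. This gave 13 sequences of 1660 in the table, under 13 of 1703 names. The table holds miRNAs alone, so the labelled tissue could not be checked against marker transcripts.

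miR167 is one of the conserved plant miRNA families. Its guide strand, cut from the 5′ arm of the hairpin precursor, directs cleavage of transcripts of the auxin response factors ARF6 and ARF8, which in Arabidopsis promote elongation of floral organs, opening of buds and ripening of anthers. The strand cut from the 3′ arm pairs with the guide in the first duplex and is usually degraded.

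The names give the closest miRBase entry and how the sequence departs from it. The prefix is the species of that entry (mdm, apple; ppe, peach; csi, sweet orange; ptc, poplar; cme, melon), L and R give bases gained or lost at the 5′ and 3′ ends, and ss gives substitutions. Sequences are written 5′ to 3′ with T for U, as deposited, and with bases 2 to 8, the seed, in capitals. The guide forms below carry most miR167 reads and show where they differ.
mdm-miR167b: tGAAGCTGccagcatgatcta
mdm-miR167b_R+1_1ss21AC: tGAAGCTGccagcatgatctca
mdm-miR167b_R+1: tGAAGCTGccagcatgatctag
ppe-miR167c_L+1R-1: cTGAAGCTgccagcatgatctg

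These forms differ at their ends and are alike in the middle. With positions counted from 1 at the 5′ end of mdm-miR167b, mdm-miR167b_R+1_1ss21AC carried A21C and 1 more base at its 3′ end. The fifth guide form, lus-miR167b_1ss19CT, carried C19T and A21T. The seed GAAGCTG was shared by 4 guide forms and by no other of the 1660 sequences. In ppe-miR167c_L+1R-1, which begins 1 base earlier, the seed was shifted to TGAAGCT. No sequence under another name lay within 2 edits of mdm-miR167b.

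The following sequences are those grouped as the 3′ arm and the members outside both groups that reached the highest levels.
mdm-MIR167c-p3: gATCATGTggtagcttcacc
csi-miR167d-3p_L-4_1ss18CT: gATCATGTggtagtttcacc
csi-miR167b-3p_2ss9CT12CT: aGATCATGtggtagtttcacc
ptc-miR167f-3p_L+3_2ss17GA18TC: aTCAGATCatgtggcaacttcacc
csi-miR167e-3p: gGTCATGCtctgacagcctcact
cme-MIR167d-p3_2ss9AT20TA: gTCATTCTtgcagcttcaaac

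The first 4 lay within 3 edits of csi-miR167b-3p_2ss9CT12CT, end bases left free, and were grouped as the 3′ arm. Counted from the 5′ end of mdm-MIR167c-p3, csi-miR167d-3p_L-4_1ss18CT differed by C14T alone, and csi-miR167b-3p_2ss9CT12CT was that same sequence with 1 more base at the 5′ end. The last 2 printed sequences, csi-miR167e-3p and cme-MIR167d-p3_2ss9AT20TA, are named for the 3′ arm. They lay more than 3 edits from both mdm-miR167b and csi-miR167b-3p_2ss9CT12CT, and were left out of both groups by that limit. In a predicted duplex with mdm-miR167b, mdm-MIR167c-p3 formed 18 base pairs at -28.6 kcal/mol, csi-miR167e-3p 17 at -20.7 kcal/mol and cme-MIR167d-p3_2ss9AT20TA 16 at -21.0 kcal/mol. At least 15 base pairs were formed by 42 of the 1660 sequences, 35 of them outside the family. Only 8 of the 1660 sequences reached -20 kcal/mol or below, and 7 of them were miR167 members. The match describes letters and does not show which hairpin a sequence came from. The other 2 members, cca-MIR167-p3_2ss3TA17TA and ath-MIR167c-p5_3ss17GT18TC19TC, had at most 3 reads in any library and are given no fold change.

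Levels are in normalized reads, the value the authors deposited per miRNA and library. One read was worth 0.713 to 0.882 in PF_L libraries, 1.05 to 1.09 in PF_Z libraries and 1.07 to 1.27 in PF_D libraries, and 751963 to 1239926 reads per library were recovered over the distinct sequences. The family summed to 3612 ± 214 (PF_L), 4206 ± 2078 (PF_Z) and 4180 ± 483 (PF_D) normalized reads (SD, n = 3 each). That was 0.384% ± 0.0322, 0.421% ± 0.111 and 0.333% ± 0.0389 of the listed normalized reads at PF_L, PF_Z and PF_D. Guide forms made up 93.6%, 94.6% and 91.8% of the family in that order of stages.

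Across stages, one 3′ arm sequence rose to the big bud and one sequence named for the 3′ arm fell, while no change passed the test for the dominant guide. Each stage pair was tested with limma on log2(value + 1) over 1554 miRNAs, with Benjamini-Hochberg adjusted p under 0.05, two-sided, called a change. Between PF_D and PF_L, 2 of 13 members were called, 1 higher and 1 lower, and 16.3% of all miRNAs tested were called (8.11% higher, 8.17% lower). Between PF_D and PF_Z, 1 of 13 members was called, higher in PF_D, beside 3.67% of all miRNAs (2.64% higher). Between PF_Z and PF_L, limma called 0 of 13 members beside 1.16% of all miRNAs. An unadjusted limma p under 0.05 was reached by 2 members, beside 14.0% of all miRNAs. They were csi-miR167e-3p and ath-MIR167c-p5_3ss17GT18TC19TC, the latter at 0 reads in each PF_L library and 1 read in each PF_Z library. For this pair edgeR and DESeq2 called 1 member each, beside 36 and 43 of the 1554 miRNAs. The median log2 fold change for PF_D against PF_L was 0.25 over the 13 members and 0.18 over the 11 with more than 3 reads in some library, where that of all miRNAs tested was -0.28.

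**Figure D1:**
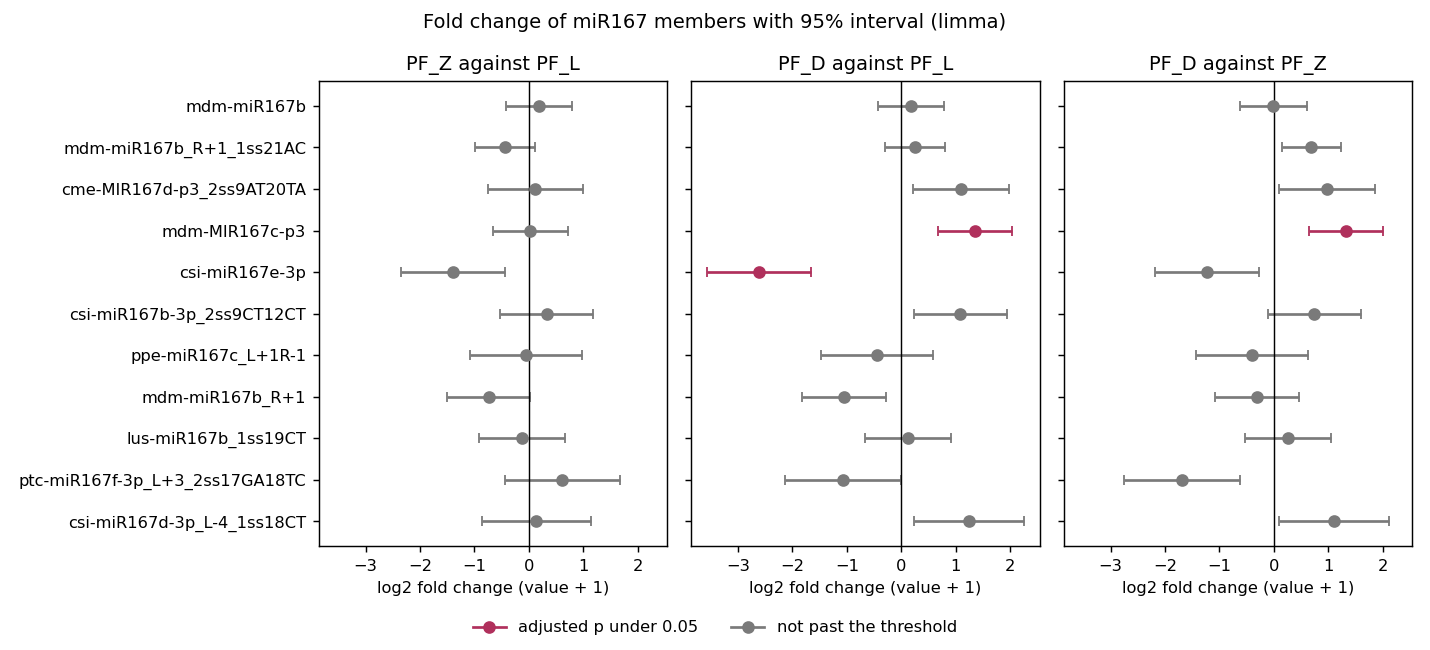
Log2 fold change (x axis, on values + 1) with its 95% interval from limma for the 11 members with more than 3 reads in some library (y axis), in a panel per stage pair, with called members in red. Red marks are mdm-MIR167c-p3 at 1.35 and csi-miR167e-3p at -2.62 for PF_D against PF_L, and mdm-MIR167c-p3 at 1.33 for PF_D against PF_Z.

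mdm-miR167b, the guide with the canonical sequence, ranked 29 of the 1660 sequences by mean level. It had 2780, 2920 and 3063 normalized reads in the PF_L libraries, 5853, 2821 and 2243 in those of PF_Z and 3757, 2767 and 3486 in those of PF_D. PF_Z replicate 1 stood above the other 8 libraries, and the stages overlapped. The log2 fold change was 0.18 for PF_D against PF_L (95% interval -0.43 to 0.79, limma adjusted p = 0.707) and 0.19 for PF_Z against PF_L (-0.42 to 0.80, adjusted p = 0.803). For PF_D against PF_Z it was -0.01 (-0.62 to 0.60, adjusted p = 1.0).

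The 22-nucleotide form mdm-miR167b_R+1_1ss21AC, which keeps the seed and differs only at its 3′ end, was the next most abundant member. It had 284, 491 and 352 normalized reads in the PF_L libraries, 309, 225 and 283 in those of PF_Z and 371, 503 and 444 in those of PF_D. All PF_D libraries lay above all PF_Z libraries, and PF_D overlapped PF_L. The log2 fold change was 0.69 for PF_D against PF_Z (95% interval 0.14 to 1.23, limma adjusted p = 0.149), 0.25 for PF_D against PF_L (-0.29 to 0.80, adjusted p = 0.532) and -0.44 for PF_Z against PF_L (-0.98 to 0.11, adjusted p = 0.468). Of the guide reads, mdm-miR167b took 86.4% ± 2.25 (PF_L), 90.4% ± 3.16 (PF_Z) and 86.7% ± 3.32 (PF_D) (SD, n = 3 each).

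A form that keeps the same seed with another base at the 3′ end, mdm-miR167b_R+1, was lower in both later stages than in PF_L without passing the test. It had 41.9, 32.1 and 39.2 normalized reads in the PF_L libraries, 25.002, 23.4 and 18.4 in those of PF_Z and 24.8, 20.3 and 10.7 in those of PF_D. Both later stages lay below PF_L in every library. Its log2 fold change for PF_D against PF_L was -1.05 (95% interval -1.82 to -0.28), which missed the threshold with a limma adjusted p of 0.0576. It passed in 5 of 21 alternatives, among them without PF_D replicate 1 (adjusted p = 0.0348) and with equal library totals (0.0172), and the adjusted p ranged up to 0.458 in the others.

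mdm-MIR167c-p3, the most abundant of the sequences grouped as the 3′ arm, was higher at the big bud stage. It had 26.5, 30.0 and 37.9 normalized reads in the PF_L libraries, 41.3, 30.5 and 25.2 in those of PF_Z and 67.5, 70.0 and 112 in those of PF_D. All PF_D libraries lay above all libraries of the other stages, and PF_Z overlapped PF_L. Its level rose in PF_D by a log2 fold change of 1.35 ± 0.33 (SE, limma adjusted p = 0.00929) against PF_L and of 1.33 ± 0.33 (adjusted p = 0.0309) against PF_Z. For PF_Z against PF_L the value was 0.03 (95% interval -0.66 to 0.71).

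The PF_D against PF_L call of mdm-MIR167c-p3 held in 18 of 21 alternatives. It was lost without PF_D replicate 3 (limma adjusted p = 0.0560), without PF_L replicate 1 (0.0512) and with equal library totals (0.0602, log2 fold change 0.95). The PF_D against PF_Z call held in 15 of 21, and was lost without PF_D replicate 2 (0.0547), PF_D replicate 3 (0.155), PF_Z replicate 2 (0.0723) or PF_Z replicate 3 (0.0946), with the compared stages alone (0.0721) and with equal totals (0.127).

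csi-miR167e-3p, named for the 3′ arm but not close to the other 3′ arm sequences, was lower at later stages. It had 89.1, 80.6 and 72.6 normalized reads in the PF_L libraries, 21.7, 42.5 and 29.4 in those of PF_Z and 30.6, 9.03 and 6.39 in those of PF_D. Every library of PF_Z and PF_D lay below every library of PF_L, while PF_D replicate 1 lay inside the PF_Z range. Its level fell in PF_D by a log2 fold change of 2.62 ± 0.45 against PF_L (SE, limma adjusted p = 8.03e-04), a call held in 21 of 21 alternatives with log2 fold changes of -3.24 (without PF_D replicate 1) to -2.05 (after scaling to valid reads). In PF_D replicate 3 it rested on 6 reads (exact 95% Poisson interval 2.20 to 13.1, counting error only).

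The intermediate steps of csi-miR167e-3p did not pass. For PF_Z against PF_L the log2 fold change was -1.39 (95% interval -2.34 to -0.44, limma adjusted p = 0.166), and for PF_D against PF_Z it was -1.23 (-2.18 to -0.28, adjusted p = 0.137). edgeR and DESeq2 called the PF_Z against PF_L difference (adjusted p = 0.0389 and 0.0392). Without PF_D replicate 1, the library with the highest PF_D level, the limma adjusted p was 0.0482 for PF_Z against PF_L and 0.00492 for PF_D against PF_Z. For PF_Z against PF_L 3 of 21 alternatives passed, with adjusted p of up to 0.436 in the others. For PF_D against PF_Z 1 of 21 passed, with adjusted p of up to 0.422 in the others. There edgeR and DESeq2 did not call the difference (adjusted p = 0.197 and 0.157).

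**Figure D2:**
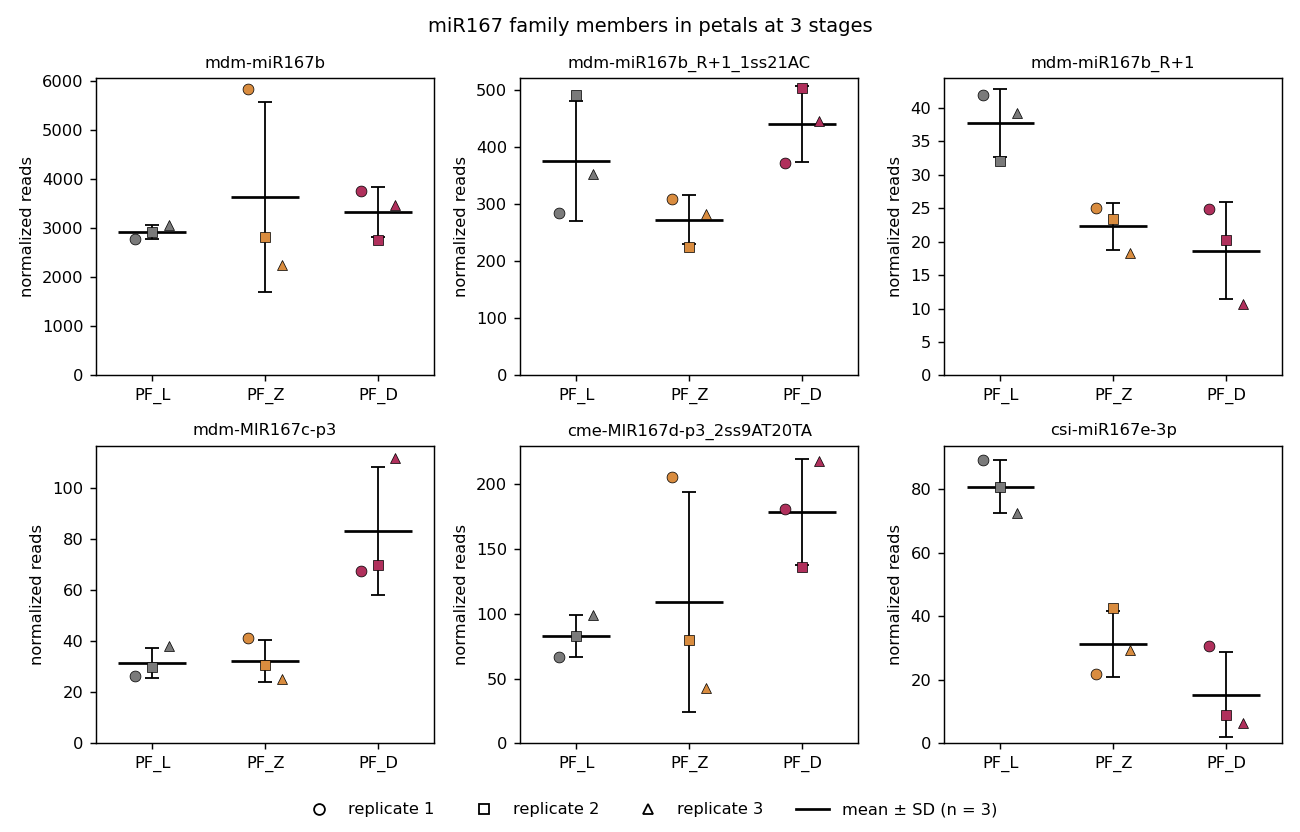
Normalized reads (y axes, from 0) of 6 members at each stage (x axes), with a symbol per replicate and the mean with its SD (n = 3). mdm-miR167b overlaps between stages, mdm-MIR167c-p3 lies at 67.5 or above in PF_D and at 41.3 or below elsewhere, and csi-miR167e-3p lies at 72.6 or above in PF_L and at 42.5 or below elsewhere.

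cme-MIR167d-p3_2ss9AT20TA, closest to a melon precursor, had 67.0, 82.7 and 99.0 normalized reads in the PF_L libraries, 205, 79.5 and 43.0 in those of PF_Z and 181, 137 and 218 in those of PF_D. PF_D lay above PF_L in every library, and PF_Z overlapped both. The log2 fold change for PF_D against PF_L was 1.09 (95% interval 0.21 to 1.97, limma adjusted p = 0.0853). This crossed the threshold in 5 of 21 alternatives, with adjusted p of up to 0.237 in the others. They were the fits without PF_Z replicate 1 (0.0186) or PF_Z replicate 3 (0.0264), with the compared stages alone (0.01001), with edgeR (0.0399) and after scaling to valid reads (0.0198). For PF_D against PF_Z the log2 fold change was 0.97 (adjusted p = 0.219), and 1 of 21 alternatives passed. It was 1.57 (0.0102) without PF_Z replicate 1, the library that was also highest for mdm-miR167b, and 0.45 (0.618) without PF_Z replicate 3.

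The other sequences grouped as the 3′ arm were scarcer. csi-miR167b-3p_2ss9CT12CT had 15.9, 33.5 and 14.0 normalized reads in the PF_L libraries, 29.3, 23.4 and 22.6 in those of PF_Z and 24.8, 62.6 and 49.0 in those of PF_D, and its stages overlapped. Its log2 fold change for PF_D against PF_L was 1.08 (95% interval 0.22 to 1.93, limma adjusted p = 0.0801). It passed in 4 of 21 alternatives, among them without PF_D replicate 1 (0.0246) and without PF_L replicate 2 (0.0297), and the adjusted p ranged up to 0.281 in the others.

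csi-miR167d-3p_L-4_1ss18CT, with the same seed as mdm-MIR167c-p3, had 4.41, 7.85 and 4.12 normalized reads in the PF_L libraries, 10.9, 3.81 and 4.72 in those of PF_Z and 9.56, 15.2 and 18.1 in those of PF_D. PF_D lay above PF_L in every library, at a log2 fold change of 1.25 (95% interval 0.24 to 2.25, limma adjusted p = 0.0856, from 0.0210 to 0.228 over the alternatives, of which 2 of 21 passed). The longest member, ptc-miR167f-3p_L+3_2ss17GA18TC of 24 nucleotides, had 7.94, 7.85 and 10.7 normalized reads in the PF_L libraries, 13.0, 9.80 and 20.99 in those of PF_Z and 8.92, 2.26 and 2.13 in those of PF_D. Its PF_D libraries lay below its PF_Z libraries, with a log2 fold change of -1.68 (-2.74 to -0.62, adjusted p = 0.0769). The PF_D values of this sequence rest on 11 reads in all, and against PF_Z 3 of 21 alternatives passed, with adjusted p from 0.0103 (without PF_D replicate 1) to 0.228. For PF_D against PF_L its log2 fold change was -1.07 (-2.13 to -0.00222, adjusted p = 0.159), and 1 of 21 alternatives passed, with adjusted p from 0.0377 (without PF_D replicate 1) to 0.514.

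Together the 4 sequences of the 3′ arm made up 1.84% ± 0.256 (PF_L), 2.06% ± 0.632 (PF_Z) and 3.57% ± 0.965 (PF_D) of the family (SD, n = 3 each). This share depends on the limit of 3 edits. All members named for the 3′ arm, csi-miR167e-3p and cme-MIR167d-p3_2ss9AT20TA among them, made up 6.39% ± 0.125, 5.39% ± 0.455 and 8.20% ± 1.03 in that order of stages. No change passed the test for the scarcer guide forms. lus-miR167b_1ss19CT averaged 18.5 ± 3.57, 16.7 ± 1.75 and 20.99 ± 8.30 normalized reads in PF_L, PF_Z and PF_D, and ppe-miR167c_L+1R-1, with the shifted seed, 28.4 ± 8.58, 32.9 ± 22.5 and 19.9 ± 2.76. Their log2 fold changes for PF_D against PF_L were 0.12 (95% interval -0.67 to 0.91) for the first and -0.45 (-1.48 to 0.58) for the second. Counted over all 13 members, 4 lay higher and 2 lower in PF_D than in PF_L with no overlap between libraries, where 15.8% and 20.5% of all miRNAs did. The higher ones were mdm-MIR167c-p3, cme-MIR167d-p3_2ss9AT20TA, csi-miR167d-3p_L-4_1ss18CT and ath-MIR167c-p5_3ss17GT18TC19TC, the last of which had 0 reads in PF_L and at most 2 in a PF_D library, under the floor of 3 reads that a count of 0 allows. The lower ones were csi-miR167e-3p and mdm-miR167b_R+1.

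Ratios within a library do not depend on its scaling. Per 100 reads of mdm-miR167b, mdm-MIR167c-p3 had 0.952 to 1.24 (PF_L), 0.706 to 1.12 (PF_Z) and 1.80 to 3.21 (PF_D) reads. PF_D did not overlap either other stage (exact permutation p = 0.1 for each, two-sided, the smallest that 3 against 3 libraries can give). csi-miR167e-3p had 2.37 to 3.21 (PF_L), 0.371 to 1.51 (PF_Z) and 0.183 to 0.814 (PF_D) reads per 100 of mdm-miR167b, and PF_L overlapped neither later stage (exact permutation p = 0.1 for each). cme-MIR167d-p3_2ss9AT20TA had 4.82 to 6.27 per 100 in PF_D, against 2.41 to 3.23 in PF_L and 1.92 to 3.51 in PF_Z. Its PF_D ratios overlapped neither other stage (exact permutation p = 0.1 for each). mdm-miR167b_R+1 had 1.10 to 1.51 (PF_L), 0.427 to 0.830 (PF_Z) and 0.306 to 0.734 (PF_D) per 100. Its PF_L ratios lay above both later stages (exact permutation p = 0.1 for each).

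**Figure D3:**
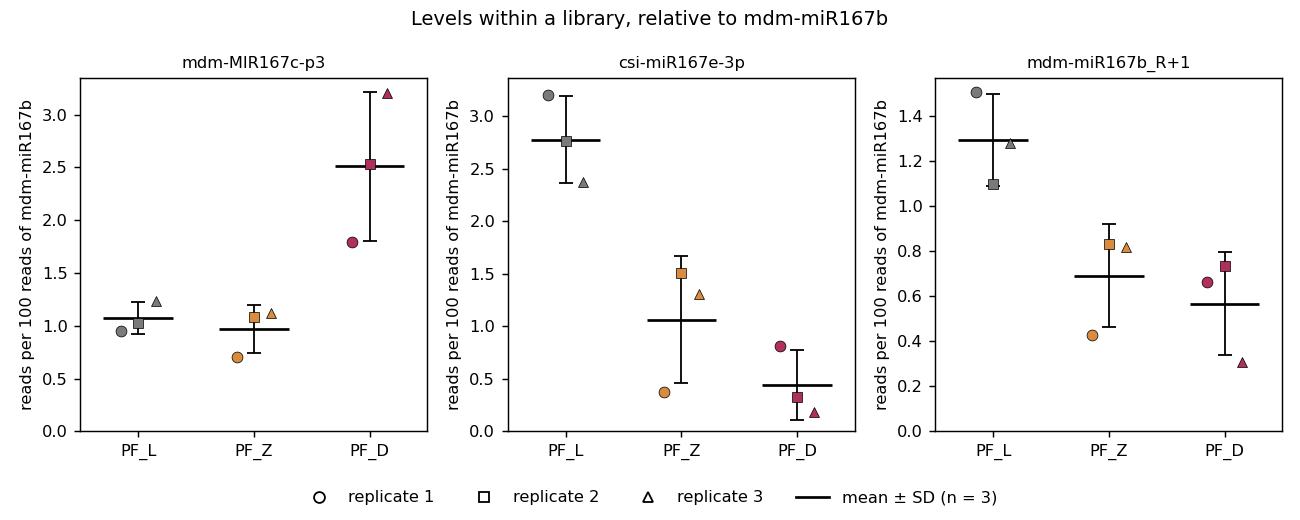
Reads of 3 members per 100 reads of mdm-miR167b in the same library (y axes, from 0) at each stage (x axes), with a symbol per replicate and the mean with its SD (n = 3). mdm-MIR167c-p3 is at 1.80 or above in PF_D and at 1.24 or below elsewhere, and csi-miR167e-3p is at 2.37 or above in PF_L and at 1.51 or below elsewhere.

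Set against the summed reads of csi-miR167b-3p_2ss9CT12CT and csi-miR167d-3p_L-4_1ss18CT, its close neighbours in sequence, mdm-MIR167c-p3 had 72.4 to 209 (PF_L), 92.3 to 112 (PF_Z) and 89.9 to 196 (PF_D) reads per 100, and the stages overlapped.

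**Figure D4:**
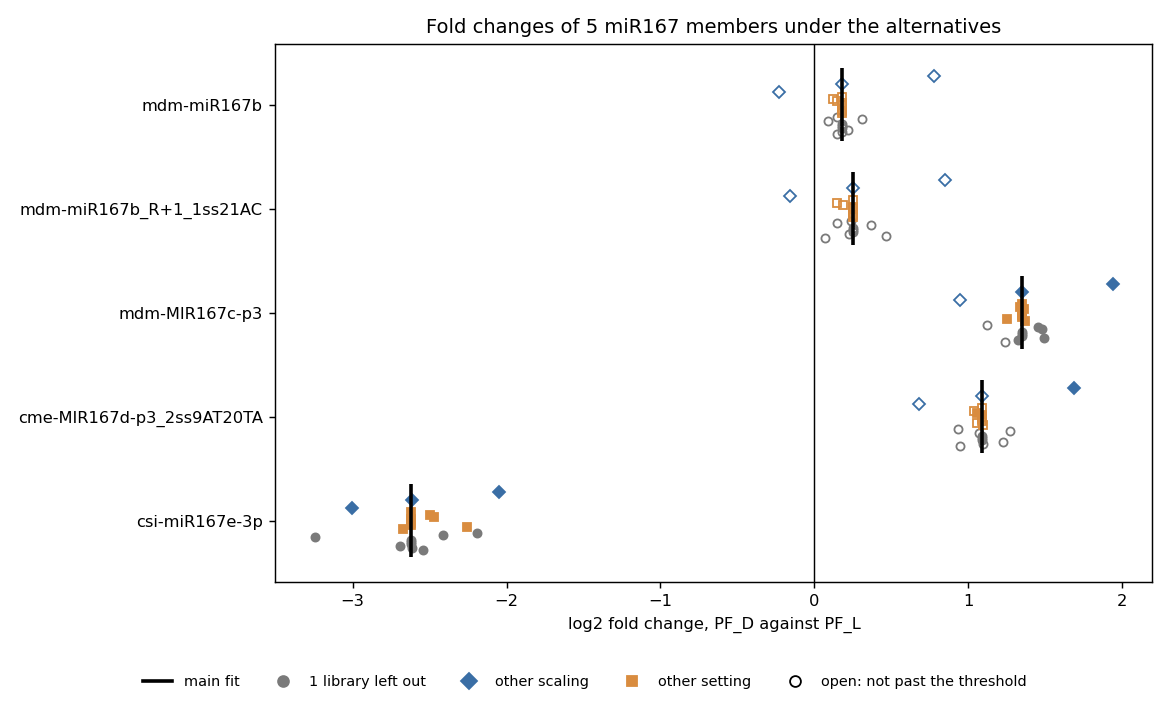
Log2 fold change for PF_D against PF_L (x axis) of 5 members (y axis) in the reported fit (black line) and under the 21 alternatives, filled where the adjusted p was under 0.05. csi-miR167e-3p is filled throughout, mdm-MIR167c-p3 is open in 3 alternatives, and mdm-miR167b falls on both sides of 0.

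Scaling moved the whole table, not the miR167 members alone. The median log2 fold change of 517 miRNAs with a mean of at least 5 for PF_D against PF_L was -0.09 as deposited, -0.48 with equal totals and 0.45 after scaling to valid reads. mdm-miR167b was at 0.18, -0.23 and 0.78 under these scalings. By the median of ratios, the median of the 517 was -0.09 and mdm-miR167b was at 0.18. Among these scalings, its value was negative with equal totals alone. With a library left out it was at 0.09 to 0.31.

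Other miRNA families of auxin signalling were counted in the same fit. They were miR160, which targets ARF10, ARF16 and ARF17 in Arabidopsis, miR164, which targets NAC genes of organ boundaries, miR390, which triggers the small RNAs that repress ARF3 and ARF4, and miR393, which targets the auxin receptors TIR1 and AFB. Of 39 sequences tested, limma called 9 higher and 11 lower in PF_D than in PF_L, where it called 8.11% of all miRNAs higher and 8.17% lower. That was 51.3% of the 39, beside 16.3% of all miRNAs. The share depends on level, since 42.4% were called in the fit of miRNAs with a mean of at least 5. Some of the 39 are end variants of one miRNA, such as mdm-miR160a, mdm-miR160a_L+1R-1 and mdm-miR160a_L+3, and are not separate observations. The calls by family were 1 higher and 6 lower of 15 for miR160, 1 and 3 of 12 for miR164, 1 and 2 of 5 for miR390, and 6 and 0 of 7 for miR393. Between PF_D and PF_Z, 3 of the 39 were called higher and 3 lower in PF_D, beside 3.67% of all miRNAs in either direction. That was 15.4% of the 39, where 16.2% were called in the fit of miRNAs with a mean of at least 5. Between PF_Z and PF_L, 1 was called higher and 0 lower in PF_Z, beside 1.16% of all miRNAs in either direction. The median log2 fold change of the 39 for PF_D against PF_L was -0.57, beside -0.28 for all miRNAs tested. By family it was -1.26 for miR160, -0.38 for miR164, -0.61 for miR390 and 3.08 for miR393, so miR393 alone had a positive median.

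Likeness to a member was measured as the root mean square difference of centred log2 levels over 9 libraries, among 166 other sequences with a mean of at least 50. The nearest to mdm-miR167b were mdm-miR319a_1ss21TC (0.23), mdm-miR171a (0.23), PC-3p-423_5918 (0.24), ppe-miR171a_1ss1TC (0.25) and mdm-miR535d_1ss7CT (0.27), where the median sequence was at 0.56. The nearest to mdm-MIR167c-p3 were mdm-miR159d_R-1 (0.25), bdi-miR7782-3p_R-4_2ss5-A21TG (0.29), csi-miR159a-5p_1ss19AT (0.32), ppe-miR171e_L-2R+2 (0.34) and mdm-MIR1511-p5_1ss1TA (0.35), with a median of 0.68.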

How the data were processed

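Per the labels and the study's methods, petal RNA was made into small RNA libraries with a TruSeq kit and sequenced on an Illumina HiSeq instrument. The labels name Trizol for RNA extraction and the methods CTAB. The authors removed adapters, junk reads and common RNA families with ACGT101-miR, matched the sequences to miRBase and used the Fragaria vesca genome. The deposited signal is their normalized read count, whose formula is not given in the sources used here.

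Of 1876 lines, 173 full repeats were dropped. The most common value above 0 of a library was taken as 1 read. Within 0.01 read, 69.1% to 72.2% of values were whole multiples and 98.3% to 99.4% whole multiples of 0.5 read, and reads were rounded. The Poisson interval and the floors cover counting error only. The intervals of fold changes come from limma and rest on the spread between replicates. The p-values set differences against that spread. Stages were compared with limma 3.58.1 (trend) on log2(value + 1) over 9 libraries, for miRNAs above 0 in at least 3. edgeR 4.0.16 (quasi-likelihood, TMM) and DESeq2 1.42.0 were run on the rounded reads. Duplexes came from ViennaRNA RNAduplex 2.7.2. Python 3.11.15 and R 4.3.3 were used, and limma was tested on simulated data.

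Full values were given for members with a mean of at least 50 at any stage or called, and further members were described after their values were seen. The members, lists and tests were chosen with earlier results of these data known. Alternatives varied the pseudocount, filter, scaling, rows, libraries, tool and replicate block. No genome positions are given.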

Additional observations from a re-analysis of the deposited data

How the results depend on the processing

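Depth limits the scarce members, since 2 of 13 stayed at 3 reads or fewer per library, and the smallest exact p of 3 against 3 libraries is 0.1. The count of members called for PF_D against PF_L was 2, and it was 5 with a mean of at least 5 over the libraries, 6 after scaling to valid reads, 4 with the compared stages alone and 1 to 5 with a library left out. The share of all miRNAs called in these fits was 42.4%, 18.5%, 20.9% and 8.09% to 18.4%, beside 16.3%. For PF_D against PF_Z it was 1, and 2 with a mean of at least 5, 0 with the compared stages alone and 0 to 3 with a library left out, where 16.2%, 2.59% and 1.89% to 4.62% of all miRNAs were called, beside 3.67%. For PF_Z against PF_L it was 0, and 1 with edgeR, 1 with DESeq2 and 0 to 1 with a library left out, where 36 and 43 of 1554 and 0.592% to 2.62% of all miRNAs were called, beside 1.16%. With the repeated lines counted, mdm-miR167b took 77.1% (PF_L), 83.5% (PF_Z) and 77.4% (PF_D) of guide reads. With the replicate number as a block, the counts stayed at 2, 1 and 0, and the correlations of same-numbered libraries ran from -0.10 to 0.28, so the numbers were not taken to pair the libraries.

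Signs turned for values that had not passed the test. The log2 fold change of mdm-MIR167c-p3 for PF_Z against PF_L was -0.013 by the median of ratios, -0.010 with edgeR, -0.048 with DESeq2 and -0.16 to 0.18 with a library left out. For mdm-miR167b it was -0.23 for PF_D against PF_L with equal totals, and for PF_D against PF_Z it was 0.029 by the median of ratios, 0.29 after scaling to valid reads and -0.30 to 0.40 with a library left out. With a library left out it was -0.21 to 0.48 for PF_Z against PF_L for mdm-miR167b and -0.48 to 0.64 for cme-MIR167d-p3_2ss9AT20TA. For mdm-miR167b_R+1_1ss21AC it was -0.16 for PF_D against PF_L with equal totals. The cause was not tested.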
